A study of Homo sapiens with 6 samples.

Results

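The genes described here serve cytokinesis: ANLN, ECT2, RACGAP1, PRC1, CIT, SHCBP1, CEP55, MYH10, SEPT9 and RHOA. They were chosen by name as genes of the contractile ring, central spindle and midbody, and all 10 of them were found among the 13008 genes of the authors' comparison table and among the 13153 genes tested. Polyadenylated RNA was measured in a human retinal pigment epithelial line immortalised with telomerase, labelled Tet-FLAG-FOXM1c-hTERT-RPE1, in which doxycycline switches on a FLAG-tagged copy of the transcription factor FOXM1c. The dox group (genotype label FOXM1 overexpression) had 3 libraries from cells given 1 µg/mL doxycycline every 24 h over 48 h. The no dox group (genotype label WT, treatment label none) had 3 libraries carrying the same line label. The labels do not say whether the line is 1 clone, and dox-treated cells without the transgene were not analysed here, so doxycycline and the induced FOXM1 cannot be told apart.

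Values per library are given throughout in the order of replicate numbers 1, 2 and 3. Read totals were 25148936 to 49882123 in the dox libraries and 15094498 to 32280300 in the no dox libraries. FOXM1 itself had 65289, 66830.4 and 74976 normalised counts in the dox libraries, against 5009, 4383 and 4292 in the no dox libraries, a 15.1-fold difference (limma adjusted p = 4.49e-06). The deposited counts do not separate the transgene from the cell's own FOXM1. The labels do not say that replicates were separate cultures, so p-values measure the spread between these libraries, which may be technical. Of 12 markers of pigment and other epithelium, 7 stayed under 1 FPKM (the authors' level per length, scaled to library depth) in every library, among them RPE65, BEST1, TYR and CDH1, and EPCAM was listed at 0. KRT8, KRT18, KRT7, MITF and OTX2 were detected. Of 10 mesenchymal markers 4 stayed under 1 FPKM in every library, COL1A2, COL3A1, DCN and LUM, while VIM reached 396 FPKM. Blood cell markers were at or near 0.

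Cytokinesis splits the daughter cells after chromosomes separate. The exchange factor ECT2, bound to the centralspindlin subunit RACGAP1, activates the small GTPase RHOA under the cell equator, and RHOA drives assembly of a ring of actin and myosin that anillin (ANLN) ties to septins and to the membrane. Antiparallel microtubules bundled by PRC1 form the central spindle, which is compacted into the midbody, where citron kinase (CIT) and CEP55 act and ESCRT proteins cut the last bridge. Transcripts of many of these genes peak in G2 and mitosis, whereas RHOA, MYH10 and SEPT9 also serve the interphase cytoskeleton.

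A short promoter word, the cell cycle homology region (CHR), is known from genes expressed in G2 and mitosis, where MuvB complexes bind it together with B-MYB and FOXM1. RefSeq start sites (GRCh38.p14) were at hand for 9 of the 10 genes, SEPT9 being listed as SEPTIN9. RACGAP1 had no entry. The 9 genes had 19 windows, 10 of them of SEPT9 and 2 of ECT2. In windows from 250 bases before to 50 bases after the start, the CHR letters TTTGAA or TTCGAA, on either strand, occurred for 6 of the 9 genes, ANLN, ECT2, PRC1, CIT, SHCBP1 and CEP55. Such a match occurred for 19.5% of all 27305 genes with a RefSeq window. By window it was 7 of 19, against 16.4% of all windows. The stretches around 1 match in each of the 6 genes are shown because all 6 share the word, although 3 of them (ANLN, PRC1 and SHCBP1) were called lower with dox in the paired fit described further on and 3 were not. Capitals mark CHR letters (TTCAAA is TTTGAA read on the other strand) and CCAAT boxes, the binding word of NF-Y, and each sequence runs 5′ to 3′ on the gene's strand.
ANLN: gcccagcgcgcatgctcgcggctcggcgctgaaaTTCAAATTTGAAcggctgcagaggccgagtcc
ECT2: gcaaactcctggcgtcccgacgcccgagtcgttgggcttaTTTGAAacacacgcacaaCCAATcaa
PRC1: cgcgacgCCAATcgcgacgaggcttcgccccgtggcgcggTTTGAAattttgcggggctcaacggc
CIT: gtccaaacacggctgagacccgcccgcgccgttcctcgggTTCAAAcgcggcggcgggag
SHCBP1: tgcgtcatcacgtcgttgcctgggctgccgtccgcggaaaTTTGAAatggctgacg
CEP55: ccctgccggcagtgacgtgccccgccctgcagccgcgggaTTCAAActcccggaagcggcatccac

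These stretches lie on GRCh38.p14 at chr7:36389802-36389867 (plus strand) for ANLN, chr3:172750571-172750636 (plus) for ECT2 and chr15:90994530-90994595 (minus) for PRC1. Those of CIT, SHCBP1 and CEP55 lie at chr12:119877291-119877350 (minus), chr16:46621350-46621405 (minus) and chr10:93496569-93496634 (plus). In ANLN a pair of CHR words adjoins, and the one printed last starts 20 bases before the start site, as the word of PRC1 does. In CEP55 the word spans the start, and in CIT and SHCBP1 it lies just downstream. None of the windows of MYH10, SEPT9 and RHOA held the CHR letters. A CCAAT box (CCAAT, either strand) occurred for 8 of the 9 genes, all but ANLN, against 39.7% of all genes. By window it was 9 of 19, against 34.6% of all windows, and only 2 of the 10 windows of SEPT9 held it. The forkhead core TAAACA occurred for 1 gene, SEPT9, in 1 of its 10 windows, against 14.7% of all genes and 12.3% of all windows. The E2F words TTTCCCGC and TTTGGCGC, also on either strand, occurred for 0 of the 9, against 2.75% of all genes. Letters in a window are a description and not a binding site.

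SHCBP1 fell in the dox libraries, to 0.528 of its no dox level, and was the only one of the 10 genes to pass the limma test over all genes without a block (adjusted p under 0.05). The same test called 0.540% of all tested genes, with 0.319% higher and 0.220% lower in dox. Libraries of equal number in the 2 groups deviated together (the values by number are given further on), and with the replicate number as a block 6 of the 10 genes fell: SHCBP1, ANLN, RACGAP1, PRC1, MYH10 and RHOA. With the block 22.5% of all tested genes were called, 10.2% as higher and 12.4% as lower. Limma called 0 of the 10 genes higher in either fit, and edgeR and DESeq2 called 0 higher too. At an unadjusted limma p under 0.05 without the block 5 of the 10 were lower and 0 higher. Over all 13153 tested genes 929 were lower and 781 higher at that threshold. The median log2 difference, dox minus no dox, was -0.28 over the 10 genes and -0.0022 over all tested genes. All 3 dox libraries lay below all 3 no dox libraries for 4 genes, SHCBP1, ANLN, RACGAP1 and PRC1. Groups that did not overlap, in either direction, were found for 19.1% of all tested genes. On whole reads recovered from the CPM values, edgeR's quasi-likelihood test called SHCBP1 alone without the block (0.192% of all genes called lower) and the same 6 genes with it (12.1%), and DESeq2 without the block called SHCBP1 and ANLN (2.32% of all genes called lower). In bulk RNA, fewer dividing cells and less of these transcripts per cell cannot be told apart.

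**Figure D1:**
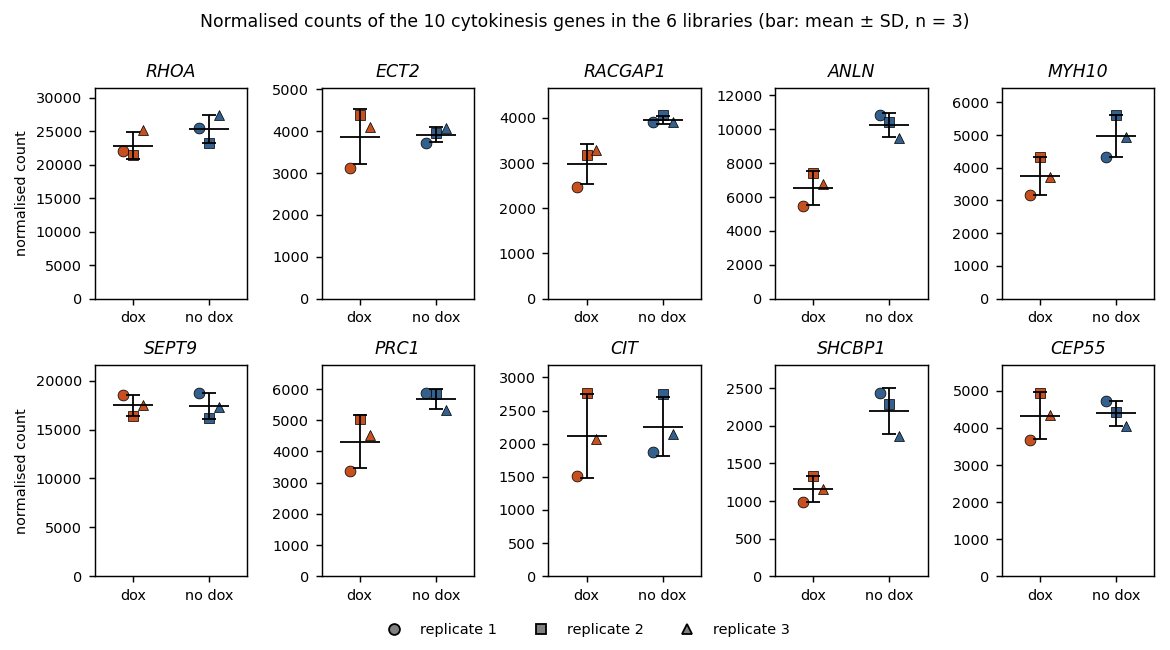
Normalised counts (linear axes from 0) of the 10 cytokinesis genes, with the 3 dox libraries left of the 3 no dox libraries, a symbol for each replicate number, and bars for the mean ± SD. Dox libraries lie wholly below no dox libraries for SHCBP1, ANLN, RACGAP1 and PRC1, and the groups overlap for the other 6 genes.

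Among the activators of the furrow, RACGAP1 (ENSG00000161800, hg19 chr12:50370706-50426919, minus strand) is the GTPase-activating subunit of centralspindlin. It had 2466, 3186 and 3278 normalised counts in the dox libraries, against 3902, 4062 and 3898 in the no dox libraries. The groups did not overlap, the no dox libraries stood close together, and dox replicate 1 was the lowest. The log2 difference was -0.42 (SE 0.11, 95% interval -0.74 to -0.10), with a limma adjusted p of 0.156 without the block and 0.00266 with it. A processed pseudogene of RACGAP1 exists, and no source used here says how reads matching both were counted.

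ECT2 (ENSG00000114346, hg19 chr3:172468472-172539264, plus strand), the guanine nucleotide exchange factor that loads RHOA with GTP, passed the test in neither fit. It had 3125, 4384 and 4089 normalised counts in the dox libraries, against 3724, 3945 and 4073 in the no dox libraries. Dox replicate 1 lay below every other library and dox replicate 2 above every other, so the groups overlapped. Between the groups the log2 difference was -0.032 (95% interval -0.38 to 0.32), with a limma adjusted p of 0.951 without the block and 0.770 with it. SEs and 95% intervals of the genes are from the fit without the block unless stated. The intervals were taken at 4 residual degrees of freedom. The limma p-values rest on more, because limma shares variance between genes, so the intervals are wider than these p-values imply. In the fit without the block, differences of either sign up to the bounds of the ECT2 interval are compatible with these libraries. With the block the SE of ECT2 was smaller, 0.067 against 0.127.

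RHOA (ENSG00000067560, hg19 chr3:49396578-49450431, minus strand), the switch that ECT2 turns on, was the most abundant of the 10 per length. It had 21967, 21429.7 and 25127 normalised counts in the dox libraries, against 25473, 23237 and 27385 in the no dox libraries. The groups overlapped, yet each dox library was below the no dox library of its number. This gave a log2 difference of -0.15 (SE 0.11), with a limma adjusted p of 0.643 without the block and 0.0334 with it. The call with the block was lost without the libraries of number 2 (adjusted p = 0.141) or of number 3 (0.128). No source used here says whether reads were counted by strand, and RHOA shares 793 bases with TCTA on the other strand, as ANLN shares 320 bases with KIAA0895 and MYH10 shares 16207 bases with NDEL1.

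Of the ring components, ANLN (ENSG00000011426, hg19 chr7:36429415-36493400, plus strand), the scaffold that binds actin, myosin, RHOA and septins, had 5454, 7421 and 6777 normalised counts in the dox libraries, against 10838, 10406 and 9461 in the no dox libraries. The lowest no dox library exceeded the highest dox library by a wide margin, and dox replicate 1 was again the lowest. The means were 6551 ± 1003 in dox and 10235 ± 704 in no dox (SD, n = 3 each). The log2 difference was -0.65 (SE 0.12, 95% interval -0.995 to -0.31), which did not pass the limma test without the block (adjusted p = 0.0688) and did with it (adjusted p = 0.000800).

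MYH10 (ENSG00000133026, hg19 chr17:8377523-8534079, minus strand), the heavy chain of nonmuscle myosin IIB, had 3176, 4339 and 3712 normalised counts in the dox libraries, against 4329, 5609 and 4938 in the no dox libraries. Dox replicate 2 was level with no dox replicate 1, so the groups overlapped, while the differences within equal numbers were nearly the same. Those pair differences were -0.45, -0.37 and -0.41 on the log2 scale for numbers 1, 2 and 3, with an SD of 0.038. The limma adjusted p was 0.252 without the block and 0.000221 with it. The mean log2 difference was -0.41 (SE 0.14 without the block and 0.041 with it).

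SEPT9 (ENSG00000184640, hg19 chr17:75276651-75496678, plus strand) encodes a filament-forming septin needed for the last step of abscission. It had 18561, 16437 and 17489.8 normalised counts in the dox libraries, against 18779, 16179.6 and 17281 in the no dox libraries. In each number the pair of libraries nearly coincided. Its log2 difference was 0.0077 (95% interval -0.26 to 0.27), with a limma adjusted p of 0.986 without the block and 0.912 with it.

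CIT (ENSG00000122966, hg19 chr12:120123595-120315095, minus strand), the citron kinase that links the ring to the midbody, had 1506, 2771 and 2067 normalised counts in the dox libraries, against 1873, 2744 and 2143 in the no dox libraries. Replicate 2 was the highest and replicate 1 the lowest in both groups, a spread wider than the difference between the groups. Its log2 difference was -0.12 (95% interval -0.74 to 0.51), with a limma adjusted p of 0.899 without the block and 0.214 with it.

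In the central spindle, PRC1 (ENSG00000198901, hg19 chr15:91509270-91538859, minus strand), the bundler of antiparallel microtubules, had 3389, 5034 and 4519 normalised counts in the dox libraries, against 5886, 5839.5 and 5324 in the no dox libraries. The groups did not overlap, but dox replicate 2 came close to the lowest no dox library and dox replicate 1 stood far below both. On the log2 scale the difference was -0.42 (SE 0.14, 95% interval -0.81 to -0.022), with a limma adjusted p of 0.264 without the block and 0.0125 with it. Without the libraries of number 1 the log2 difference with the block was smaller, at -0.23 (limma adjusted p = 5.62e-05). That fit had fewer residual degrees of freedom and called 29.2% of all tested genes, against 22.5% with the block over all 6 libraries. Its smaller p-value is therefore not stronger evidence for PRC1.

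At the midbody, SHCBP1 (ENSG00000171241, hg19 chr16:46614466-46655538, minus strand), a protein that binds centralspindlin there, had the largest difference of the 10 genes. It had 990.3, 1327 and 1163 normalised counts in the dox libraries, against 2440.4, 2288 and 1860.1 in the no dox libraries. All dox libraries lay well below all no dox libraries. The means were 1160.3 ± 169 in dox and 2196 ± 301 in no dox (SD, n = 3 each). This made a log2 difference of -0.92 (SE 0.14, 95% interval -1.30 to -0.54), with a limma adjusted p of 0.0447 without the block and 0.000291 with it. The call without the block was lost when any of the 6 libraries was left out (limma adjusted p = 0.0706 to 0.178) and on the FPKM values (adjusted p = 0.0983).

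CEP55 (ENSG00000138180, hg19 chr10:95256389-95288849, plus strand), which brings the ESCRT machinery to the midbody, had 3679, 4952 and 4354 normalised counts in the dox libraries, against 4724, 4424 and 4046 in the no dox libraries. Dox replicate 1 was the lowest of the 6 libraries and dox replicate 2 the highest. The difference on the log2 scale was -0.031 (95% interval -0.36 to 0.30), with a limma adjusted p of 0.950 without the block and 0.825 with it. Without replicate 1 in both groups the sign turned and CEP55 was called higher in dox with the block (log2 difference 0.13, limma adjusted p = 0.0134).

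**Figure D2:**
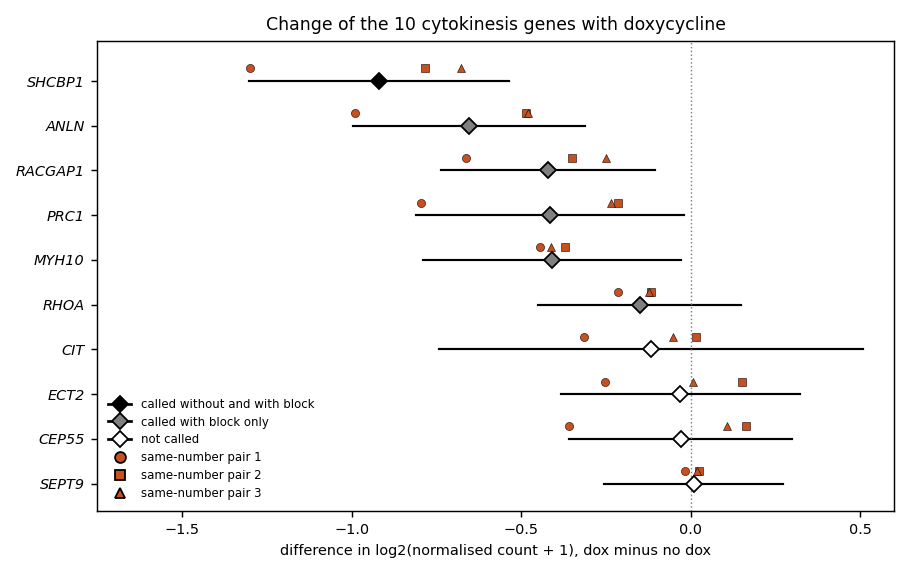
Log2 difference, dox minus no dox, of each gene (diamonds), with the differences within replicate numbers 1, 2 and 3 as small symbols. Bars are 95% intervals from the limma fit without block, taken at 4 residual degrees of freedom and so wider than its p-values imply. Black diamonds passed the test in both fits, grey ones with the block only and white ones in neither, and the symbol of number 1 is the leftmost in all 10 rows.

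The size of the differences varied with the replicate number. When each library was set against its group mean across all genes, dox and no dox libraries of equal number moved together, with correlations of 0.745, 0.726 and 0.768 for numbers 1, 2 and 3. For the 10 genes the median difference was -0.40 in number 1, -0.17 in number 2 and -0.18 in number 3. Number 1 gave the lowest of the 3 differences in 10 of the 10 genes, against 37.5% of all tested genes. ANLN differed by -0.99, -0.49 and -0.48 in numbers 1, 2 and 3, and SHCBP1 by -1.30, -0.79 and -0.68. For PRC1 the values were -0.80, -0.21 and -0.24 and for RACGAP1 -0.66, -0.35 and -0.25. ECT2 with -0.25, 0.15 and 0.0057 and CEP55 with -0.36, 0.16 and 0.11 were below 0 in number 1 alone. All 3 differences were below 0 for 6 of the 10 genes, against 28.5% of all tested genes, and above 0 for 0 of the 10, against 26.5%. Dox replicate 1 was the lowest dox library for 8 of the 10 genes, all but SEPT9 and RHOA, against 38.3% of all tested genes.

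The authors' deposited table, which was computed from the same libraries, called 2 of the 10 genes, both lower in dox, at an adjusted p under 0.05 that called 2.78% of its genes (1.52% as lower). In the authors' deposited table SHCBP1 had a log2 fold change of -0.91 (adjusted p = 1.20e-07) and ANLN of -0.64 (adjusted p = 0.00238). RACGAP1 followed in the authors' deposited table with -0.40 (adjusted p = 0.0681).

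Levels were compared between genes only per length, as the authors' FPKM, which rest on a deposited gene width (4095 bases for CEP55, 66210 for SEPT9). The order of genes depends on these widths. SEPT9 averaged 17496 normalised counts in dox, against 4328 for CEP55, but lay below CEP55 in FPKM. RHOA was the highest, with 146 ± 9.86 FPKM in dox and 159 ± 8.60 in no dox (SD over 3 libraries a group, here and in the values that follow). CEP55 came next with 36.8 ± 6.45 in dox and 36.6 ± 3.28 in no dox, and ANLN with 12.7 ± 2.26 in dox and 19.5 ± 1.65 in no dox. On this scale the levels of ANLN and CEP55 were separate: ANLN spanned 10.4 to 20.5 FPKM over the 6 libraries and CEP55 30.7 to 43.6. SEPT9 had 9.17 ± 0.365 FPKM in dox and 8.96 ± 0.537 in no dox. SHCBP1 had 5.35 ± 0.932 in dox, below SEPT9, and 9.91 ± 1.504 in no dox, where its range overlapped that of SEPT9. PRC1 had 6.52 ± 1.43 in dox and 8.41 ± 0.643 in no dox, and overlapped SHCBP1 in both groups. ECT2, MYH10 and RACGAP1 could not be ordered beyond their spread. ECT2 had 4.51 ± 0.864 FPKM in dox and 4.47 ± 0.231 in no dox, MYH10 3.69 ± 0.683 in dox and 4.79 ± 0.737 in no dox, and RACGAP1 3.39 ± 0.546 in dox and 4.42 ± 0.234 in no dox. CIT was the lowest, with 1.65 ± 0.544 in dox and 1.72 ± 0.390 in no dox, and all its libraries lay below all those of RACGAP1.

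**Figure D3:**
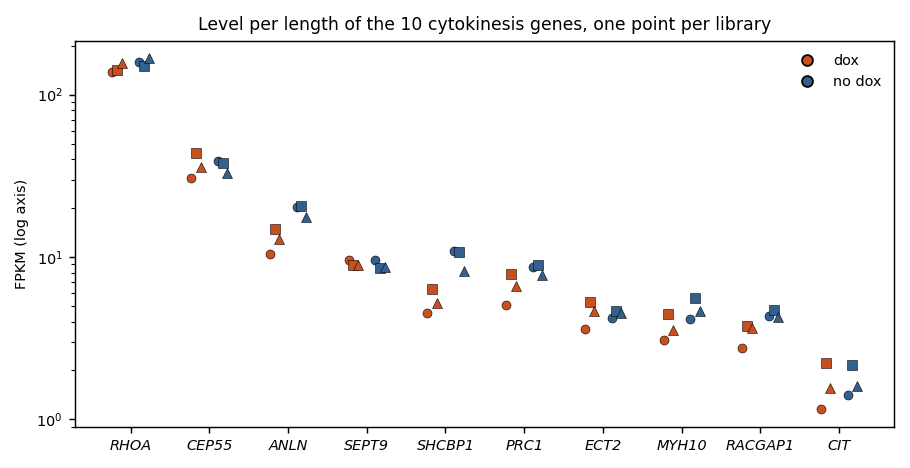
FPKM (log axis) of the 10 genes in dox libraries (left of each pair, orange) and no dox libraries (blue), with 1 point per library, symbols by replicate number as in the plot of normalised counts, and genes ordered by the mean over the 6 libraries. RHOA lies highest and CIT lowest, and neighbours from SEPT9 to RACGAP1 overlap.

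Partners of the 10 genes were read from lists assembled by function, and calls in them are by limma unless another tool is named. Over all tested genes limma called 0.220% lower and 0.319% higher without the block, and 12.4% lower and 10.2% higher with it. Where a list had 1 gene higher with the block, that is near the latter share. Without the block DESeq2 called 2.32% of all genes lower and edgeR 0.192%. At an unadjusted limma p under 0.05 without the block, 929 of 13153 genes were lower and 781 higher. In the central spindle list of motors and kinases (10 genes), 1 gene fell and 0 rose without the block, whereas 7 fell and 1 rose once the block was used, at a median log2 difference of -0.30. DESeq2, which had no block, called 4 lower, BIRC5, CDCA8, KIF4A and PLK1, and edgeR without the block called 1. BIRC5, the survivin subunit of the passenger complex, was the one called in both fits, averaging 1587 ± 262 normalised counts with dox, against 3088 ± 292 without (SD, n = 3 each; log2 difference -0.97, limma adjusted p = 0.0411, and 0.000282 with the block). Without the block its call was lost when any library other than dox replicate 1 was left out (limma adjusted p = 0.0949 to 0.142) and on FPKM values (0.0596). The 4 others of this list were picked out after their values were seen. KIF23, the motor subunit that pairs with RACGAP1, averaged 2548 ± 405 normalised counts with dox, against 3056 ± 200.1 without, a log2 difference of -0.27 (limma adjusted p = 0.402, and 0.0146 with the block), and without the libraries of number 1 the blocked fit gave -0.16. KIF4A, the kinesin that works with PRC1, differed by -0.58 (limma adjusted p = 0.0645, and 0.000602 with the block), and the passenger subunit CDCA8 by -0.77 (0.0678, and 0.000561 with the block). KIF14, which recruits citron kinase, was the gene of this list that rose with the block (log2 difference 0.20, limma adjusted p = 0.0441, and 0.682 without it), a call lost without the libraries of number 2 (0.321) or of number 3 (0.188).

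Lists of the cell cortex came next. Of 13 measured actomyosin ring genes none passed the limma test without the block, and with it 1 rose, the formin DIAPH3 (log2 difference 0.13, adjusted p = 0.0415, chosen after its value was seen), while 0 fell. At an unadjusted limma p under 0.05, 0 of the 13 passed without the block. DESeq2 called 0, and edgeR called 0 without the block and, with it, 1 higher and 1 lower. That DIAPH3 call too was lost without number 2 (0.277) or number 3 (0.170). The median of that list was -0.12. Its formin DIAPH1, an effector of RHOA, differed by -0.14 (limma adjusted p = 0.470, and 0.0552 with the block), and the RHOA-dependent kinase ROCK2 by -0.13 (0.606, and 0.0699 with the block). Of the 7 other septins measured limma called 0 without the block (1 lower at an unadjusted p under 0.05) and 4 fell with it, at a median of -0.20. DESeq2 called 1 lower, SEPT8, and edgeR without the block called 0. SEPT8 averaged 2162 ± 93.1 normalised counts with dox, against 2926 ± 179 without (SD, n = 3 each), a log2 difference of -0.44 (limma adjusted p = 0.0628, and 0.000251 with the block). SEPT5 differed by -0.50 and passed in neither fit.

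The ESCRT and abscission list, the machinery that CEP55 recruits, had 0 of its 20 measured genes called by limma or edgeR, with or without the block, by DESeq2, or by limma at an unadjusted p under 0.05 without the block, and its differences ran from -0.12 to 0.17 on the log2 scale with a median of 0.00028. The ESCRT-III subunits CHMP4B and CHMP7 had the smallest adjusted p without the block, at log2 differences of -0.10 and -0.10 (limma adjusted p = 0.639 and 0.671). Of 12 genes of membrane traffic to the furrow and midbody limma called 0 without the block (1 higher and 3 lower at an unadjusted p under 0.05), and with it 5 fell and 1 rose. Without the block DESeq2 and edgeR also called 0. The exocyst subunit EXOC4 was the one that rose (log2 difference 0.29, limma adjusted p = 0.00413, and 0.2502 without the block), and the syntaxin STX2 was among those that fell (log2 difference -0.21, 0.0110 with the block and 0.277 without it). The call of STX2 was lost without number 2 (0.0757) or number 3 (0.0504).

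Cell cycle markers were measured beside these genes. Of 12 G2 and M phase markers limma called 0 without the block (1 higher and 4 lower at an unadjusted p under 0.05), and with it 7 fell and 1 rose, at a median log2 difference of -0.32. DESeq2 called 3 lower, HMMR, TPX2 and BUB1, and edgeR without the block called 0. The median was -0.56 in number 1, -0.18 in number 2 and -0.13 in number 3. HMMR, a spindle protein, differed by -0.75 (limma adjusted p = 0.0694, and 0.000126 with the block), and TPX2, an activator of Aurora A, by -0.40 (0.101, and 0.00191 with the block). The marker that rose was CCNB2, named after its value was seen (log2 difference 0.42, limma adjusted p = 0.345, and 0.00412 with the block). CENPF and CCNB1 also lay above 0, at 0.17 and 0.043, and passed in neither fit. Of 12 S phase markers limma called 0 without the block (7 lower at an unadjusted p under 0.05) and 7 fell with it, at a median of -0.40. DESeq2 called 6 lower, TYMS, CCNE2, MCM2, MCM4, MCM6 and GINS2, and edgeR without the block called 0. Thymidylate synthase TYMS differed by -0.73 (limma adjusted p = 0.0645, and 0.00164 with the block) and cyclin CCNE2 by -0.71 (0.0687, and 0.000697 with the block). The part of cell cycle phase in the values of the 10 genes was not tested. Summed FPKM of the epithelial markers were 77.5 to 108.1 in dox and 63.2 to 86.3 in no dox libraries. Of the 7 tested, KRT8, KRT18 and KRT7 rose with the block, which called 10.2% of all tested genes higher. BEST1, PMEL, OTX2 and MITF had differences of -0.39, -0.12, -0.084 and -0.039 that passed in neither fit, and the list median was -0.039. Summed FPKM of the mesenchymal markers were 431.1 to 530.4 in dox and 442.7 to 542.7 in no dox. THY1 was the 1 of 7 tested that fell with the block (log2 difference -0.27, limma adjusted p = 0.00311). That is near the 12.4% of all tested genes called lower with the block. The part of either list was not tested.

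**Figure D4:**
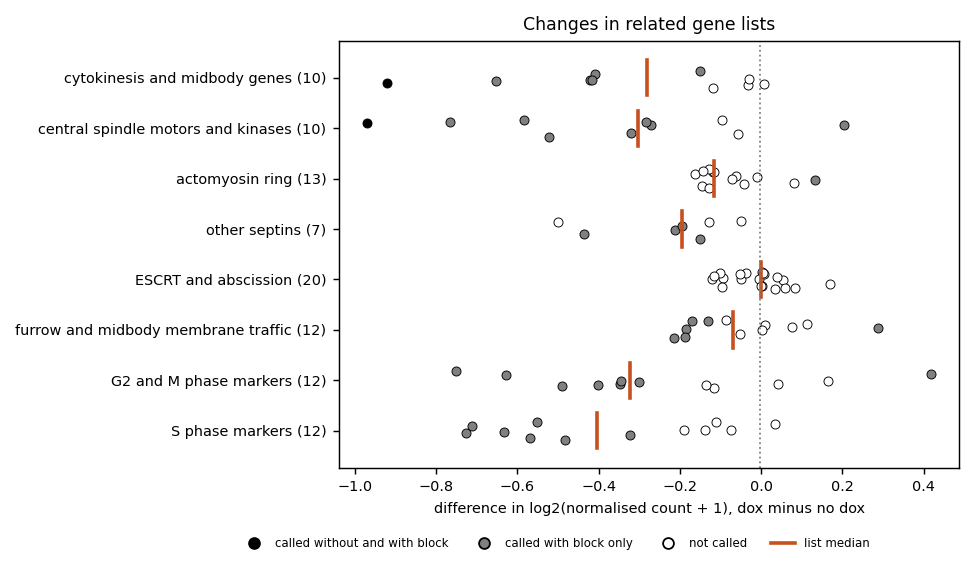
Log2 difference, dox minus no dox, of each measured gene in the cytokinesis set and 7 lists beside it, with the number measured in brackets and the list median as a bar. Genes called in both fits are black, with the block only grey and in neither white; the ESCRT and abscission genes lie between -0.12 and 0.17, all white.

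Over the 6 libraries the log2 levels of the genes fell into different patterns, described here by Pearson's r with no test, since the libraries share groups and replicate numbers. ANLN was most like SHCBP1 within the set (r = 0.988), and RACGAP1 followed PRC1 (0.959) and ANLN (0.958). ECT2 was nearer to CIT (0.846) and CEP55 (0.725). CIT and SEPT9 ran opposite (-0.927). These values include the difference between the groups. When each library was set against its group mean, ANLN was nearest to CEP55 and PRC1 (0.986 each) and RACGAP1 to ECT2 (0.925). CIT and SEPT9 still ran opposite (-0.937). By log2 level among all tested genes with a symbol, the most like ANLN was TPX2 (r = 0.998). The most like RACGAP1 was DEPDC1 (0.996) and the most like PRC1 was CDC45 (0.995). CIT was most like ASPM (0.9996). SHCBP1 was most like GUCD1 and CDT1 (0.996 each), MYH10 most like KHK (0.997) and RHOA most like SNX3 (0.995). SEPT9 was most like PTPLB (0.995), ECT2 most like CSPG4P12 (0.985) and CEP55 most like the noncoding RP11-46C24.7 (0.991). Second came PPP4R1 for ANLN (0.995), PAQR4 for RACGAP1 (0.995), KIF18B for PRC1 (0.993), RMND5B for CIT (0.994) and ACACA for MYH10 (0.996). For RHOA it was WTAP (0.993), for SEPT9 C11orf58 (0.995), for ECT2 GTF2H4 (0.983) and for CEP55 CNOT10 (0.988). Each is picked from all tested genes over only 6 libraries, and the highest r was at least 0.985 for every one of the 10 genes.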

How the data were processed

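The 6 RNA-seq libraries, 3 dox and 3 no dox, were grouped by their titles. Genome build hg19 and the tools TopHat, Trimmomatic, bcl2fastq and edgeR come from the submitters' processing notes, which give neither versions nor roles. The authors deposited normalised counts, a depth-equalised signal with no formula stated, and FPKM values, which are CPM divided by a deposited gene width in kilobases. Per the file headers, the authors' deposited comparison table holds CPM, log2 fold changes, a likelihood ratio score, p-values and adjusted p-values. In each library 100% of CPM values were whole multiples of 1 read (tolerance 0.01), which gave the whole reads; the 10 genes had 934 to 38538 reads each per library.

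Two-sided limma-trend was run on log2(normalised count + 1) with 4 residual degrees of freedom, for the 13153 genes that reached 10 normalised counts in 3 or more libraries (8 were removed), Benjamini-Hochberg adjusted over all of them. Fold changes on this scale understate changes of low genes. Both groups carry replicate numbers 1 to 3 in the titles. Same-numbered libraries deviated together (correlations 0.745, 0.726 and 0.768, against -0.27 to -0.54 for other numbers). Deviations from a group mean cancel out within the group, so the positive values force negative ones among the other numbers. From the positive values the numbers were taken to pair the libraries. Values with the number as a block (2 residual degrees of freedom) are given beside the others. The members and lists were chosen with earlier results of these data known. Named genes were all members, FOXM1, in each list those that passed (up to 6) or else the 2 with the smallest adjusted p, and for each member the 2 genes most like it. Alternatives were pseudocounts of 0.25 and 5, filters, FPKM, scaling, the block, omitted libraries, and edgeR's quasi-likelihood test and DESeq2 on the recovered reads. 1 further gene list is not reported here. The fits were tested on simulated data. Chi-square per degree of freedom between libraries was at least 15.9. Tools were DESeq2 1.42.0, edgeR 4.0.16 and limma 3.58.1 in R 4.3.3, with Python 3.11.15.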

Additional observations from a re-analysis of the deposited data

How the results depend on the processing

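Over all genes, limma called 71 genes, against 31 on FPKM values, 2965 with the replicate block, 3058 by edgeR's quasi-likelihood test with the block and 520 by DESeq2. Leaving out 1 library gave 3 to 21, and leaving out 1 replicate number in both groups, with the block, 3835, 1414 and 1779 for numbers 1, 2 and 3. Of the 10 cytokinesis genes 1 was called lower, against 0 on FPKM values, 6 with the replicate block, 6 by edgeR with the block and 2 by DESeq2 (SHCBP1 and ANLN), 0 without any single library, and 6, 5 and 5 without numbers 1, 2 and 3 with the block. CEP55 was the 1 gene called higher, without number 1, where 1761 of all 13153 tested genes were called higher. The median difference of the 10 genes lay between -0.28 and -0.25 under the other settings and between -0.41 and -0.17 with libraries left out.

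ANLN, RACGAP1, PRC1, SHCBP1, MYH10 and RHOA kept their sign throughout, and with the replicate block limma and edgeR called the same 6. RHOA was the one lost without number 2 or 3. Without 1 library the log2 difference ran from -0.13 to 0.11 for ECT2, -0.33 to 0.11 for CIT, -0.13 to 0.081 for CEP55 and -0.044 to 0.064 for SEPT9. Without number 1 it was 0.079 for ECT2 and 0.13 for CEP55. Quantile normalisation turned CEP55 to 0.00063 and SEPT9 to -0.0032. The cause of these shifts was not tested. Differences as small as those of ECT2, CIT, CEP55 and SEPT9 were not resolved without the block with 3 libraries a group. With the block over all 6 libraries these genes were not called either. DIAPH3 was called there at a log2 difference of 0.13 (limma adjusted p = 0.0415).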

Other observations

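FOXM1 and the cytokinesis genes can be set side by side by replicate number. The log2 difference of FOXM1, dox minus no dox, was 3.70, 3.93 and 4.13 in numbers 1, 2 and 3. The median difference of the 10 cytokinesis genes in the same order was -0.40, -0.17 and -0.18. With 3 numbers no relation between them was tested.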
